A study of Mus musculus with 16 samples.

Results

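Ccn1, Ccn2, Ankrd1, Thbs1, Tgfbi and Tgfb1i1, 6 genes known as targets of TGF-beta signalling, of the transcriptional co-activator YAP, or of both, were followed on 16 Illumina expression arrays of mouse embryonic fibroblasts (MEFs). Members were the probes whose platform gene symbol is one of these 6 names. They were 7 of 24613 probes and stood for 5 of 15967 named genes, each read by its brightest detected probe. No probe carries the symbol Tgfb1i1, so that gene was not analysed here. The study asked how BMP2, a bone morphogenetic protein, and the DNA-damaging drug doxorubicin (labelled ADR) act on MEF transcription, alone and together, with and without Smad1. The transformed set held MEFs carrying RasV12 and E1A, either labelled Smad1-/- (titled cre) or Smad1f/f with the floxed allele intact (titled pbabe). Each genotype had 1 array with both agents at 12 h, 1 with ADR at 12 h, 1 with BMP2 at 12 h and 1 untreated array at 0 h, so agent and 12 h of culture cannot be told apart against the untreated arrays. The primary set held non-transformed MEFs at passage 2, with 1 array each for both agents, ADR, BMP2 and no agent (labelled CTRL) at 16 h, and the same at 8 h. BMP2 was used at 100 ng/ml by the titles and at 50 ng/ml by the series description, and doxorubicin at 0.3 uM by the titles and at 1 ug/ml by that description. Nothing in the labels says that the arrays come from separate cultures, and with 1 array per condition the spread behind each error and p-value is the departure from an additive fit, which may be technical.

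TGF-beta receptors phosphorylate SMAD2 and SMAD3, which join SMAD4 and bind short CAGAC-type elements, while BMP receptors act through SMAD1, SMAD5 and SMAD8. YAP and its relative TAZ (gene Wwtr1) are kept out of the nucleus by the Hippo kinases and, once nuclear, bind DNA through TEAD proteins. Ccn1 and Ccn2 encode matricellular proteins of the CCN family and are standard readouts of YAP activity in fibroblasts, and Ccn2 is also induced by TGF-beta. Ankrd1 encodes an ankyrin-repeat nuclear cofactor known from heart muscle and is a further YAP readout. Thbs1 encodes thrombospondin-1, a secreted glycoprotein that can activate latent TGF-beta. Tgfbi encodes a TGF-beta-induced, integrin-binding matrix protein.

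Promoter windows are shown because they let a reader see which of the known elements lie next to each start. RefSeq (GRCm38.p6) windows of 250 bases before to 50 bases after the start were held for 3 of the 6 genes. These are Ccn1 (chr3:145649936-145650235, minus strand), Ankrd1 (chr19:36119795-36120094, minus strand) and Tgfbi (chr13:56609336-56609635, plus strand). Each is printed 5′ to 3′ on the strand of its gene, and capitals mark every match to the TEAD motif GGAATG on either strand.
Ccn1: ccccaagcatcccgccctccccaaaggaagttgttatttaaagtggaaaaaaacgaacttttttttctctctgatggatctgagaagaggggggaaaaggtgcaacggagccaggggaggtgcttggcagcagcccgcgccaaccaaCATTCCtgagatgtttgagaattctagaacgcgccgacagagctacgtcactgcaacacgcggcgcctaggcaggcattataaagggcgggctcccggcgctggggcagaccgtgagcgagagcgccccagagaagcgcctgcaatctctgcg
Ankrd1: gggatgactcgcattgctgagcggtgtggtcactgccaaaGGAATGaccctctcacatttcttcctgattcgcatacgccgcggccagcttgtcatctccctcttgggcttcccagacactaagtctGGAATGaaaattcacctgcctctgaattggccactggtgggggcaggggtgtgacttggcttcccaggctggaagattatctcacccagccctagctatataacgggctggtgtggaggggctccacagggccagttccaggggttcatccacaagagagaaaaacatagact
Tgfbi: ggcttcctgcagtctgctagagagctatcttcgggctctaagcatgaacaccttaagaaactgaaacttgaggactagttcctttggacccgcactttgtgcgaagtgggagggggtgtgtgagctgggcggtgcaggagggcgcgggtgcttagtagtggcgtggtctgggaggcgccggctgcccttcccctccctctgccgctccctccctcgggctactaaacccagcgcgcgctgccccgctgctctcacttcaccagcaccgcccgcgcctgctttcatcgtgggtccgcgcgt
Counted from the start, the Ccn1 window held 1 TEAD match, beginning at position -103 on the opposite strand. The Ankrd1 window held 2, beginning at -210 and -123 on the gene's own strand, and the Tgfbi window held 0. At least 1 match was present in 14.7% of all 32851 windows of this length, and 2 or more in 1.36%. The SMAD motif CAGAC, read on both strands, occurred 1 time in the Ccn1 window and 2 times each in the Ankrd1 and Tgfbi windows. Of all windows 49.6% held at least 1 match and 16.2% held 2 or more. In Ankrd1, 1 SMAD match (beginning at -127) overlapped the TEAD match at -123 by 1 base. No window held the AP-1 motif TGANTCA (7.81% of all windows) or the CArG box of SRF (1.63%). A match describes the sequence and does not show binding.

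Several values bear on the labels and come before the results. In the transformed set the Smad1 probe differed by 0.01 ± 0.11 (log2, SE) between Smad1-/- and Smad1f/f (adjusted p = 0.984), so it did not separate the genotypes, and where it lies relative to the deleted part is not given in the sources used here. Id1 and Id3, classic BMP-SMAD targets, were higher in Smad1-/- than in Smad1f/f, by 1.37 ± 0.20 and 1.10 ± 0.16 (adjusted p = 0.0437 each). In the primary set Id1 was 0.96 ± 0.08 higher on arrays labelled ADR than on those without (adjusted p = 6.17e-06) and 0.44 ± 0.08 lower on arrays labelled BMP2 than on those without (-0.44, adjusted p = 7.66e-04). Cdkn1a and Mdm2, textbook p53 targets, were 0.96 ± 0.07 and 0.71 ± 0.12 higher on primary arrays labelled BMP2 (adjusted p = 1.24e-07 and 4.31e-04), while with the ADR label they differed by 0.03 ± 0.07 and -0.01 ± 0.12 (adjusted p = 0.925 and 0.979). In the transformed set Mdm2 was 0.55 ± 0.08 higher at 12 h of the BMP2 label than in the untreated arrays (adjusted p = 2.16e-04) and differed by -0.18 ± 0.08 with the ADR label (adjusted p = 0.240), and Id3 fell by 1.72 ± 0.23 with the BMP2 label (adjusted p = 7.90e-05). Cdkn1a fell by 0.30 ± 0.07 with the ADR label there (adjusted p = 0.0362), a call lost with neqc, with a common median and without the Smad1-/- BMP2 array. The other checks in the transformed set did not pass, namely Id1 with BMP2 (-0.46, adjusted p = 0.186) or ADR (-0.39, adjusted p = 0.463), Id3 with ADR (-0.54, adjusted p = 0.192) and Cdkn1a with BMP2 (0.17, adjusted p = 0.0668). In primary cells 3 of the 5 checks were higher with the BMP2 label, 1 was lower and 1 did not pass. With the ADR label 2 were higher there and 3 did not pass. Id3 and Smad1 enter these counts, but their values in primary cells are not given here. The calls that run against the agents the labels name were those of Id1, Cdkn1a and Mdm2 in primary cells and of Id3 and Mdm2 in transformed cells. The files do not settle which agent each array received, so every condition below is named by its label only, and every direction is that of the label.

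The marker genes of the 2 sets also differed. All 12 fibroblast markers were detected on every transformed array (summed signal 51975 to 61111 after scaling to a common 75th percentile), against 4 of 12 on every primary array (summed signal 15360 to 23789). Col1a1, Col1a2, Col3a1, Dcn, Lum and Thy1 were detected on no primary array. Epithelial markers summed to 459 to 1754 on transformed arrays and 2280 to 4916 on primary arrays, a difference carried by Krt18, with signals of 85.2 to 110.4 on transformed and 1557.8 to 3836.9 on primary arrays, while Krt8, Epcam and Cdh1 were detected in neither set. Krt7 ran the other way, detected on 8 of 8 transformed arrays and on 2 of 8 primary arrays, and of 6 tested epithelial markers 2 were higher and 3 lower in transformed Smad1f/f, beside 27.5% and 32.6% of all genes. Within the transformed set the epithelial sums were highest on both arrays with both agents (1384 and 1754, against 459 to 720 on the other arrays), largely through Krt7 (722.6 and 935.1, against 106.0 to 195.7), and so were the endothelial sums (934 and 1001, against 275 to 437), although Cdh5, Kdr and Pecam1 were detected on no array of either set. Muscle marker sums were lowest on the same 2 arrays (782 and 809, against 1099 to 1255 on the other transformed arrays) and 329 to 430 on primary arrays. Macrophage marker sums were 374 to 524 on transformed arrays and 182 to 232 on primary arrays, where none of the 3 tested was detected. The part of cell makeup in any result below was not tested, and in these bulk samples fewer cells of a type and less RNA per cell cannot be told apart. Between 40.1% and 46.8% of probes were detected (p under 0.05) per array. In the deposited signals the transformed arrays labelled BMP2 carry identical columns in both genotypes, of which the Smad1-/- one departs from its own detection values, whereas their deposited log2 values differ. Tests therefore used the log2 values, and signals given for that array are recovered from them.

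All 5 measured members were detected on each of the 8 transformed arrays, and Ccn1, Ccn2 and Ankrd1 also on each of the 8 primary arrays. Thbs1 and Tgfbi were detected on no primary array, with signals of 51.7 to 69.6 and 62.0 to 79.7 there, at the level of the array background. Against that background Thbs1 was at least 8.88-fold higher in transformed Smad1-/- and at least 7.18-fold higher in transformed Smad1f/f arrays than in primary arrays, and Tgfbi at least 5.97-fold and 3.96-fold higher. (Such a bound sets the bright group's mean against the lowest detected signal of each dim array, after scaling to the 75th percentile.) Ccn2 was 2.05 ± 0.42 (log2, SE) higher in transformed Smad1f/f than in primary arrays (adjusted p = 7.75e-04). Ccn1 differed by -0.46 ± 0.45 (adjusted p = 0.386) and Ankrd1 by 0.45 ± 0.44 (adjusted p = 0.392) in the same comparison, where 60.1% of 10982 genes passed (27.5% higher, 32.6% lower) and the median over all genes was -0.04. Set, genotype, passage, culture and cell makeup cannot be told apart in it, and Ccn1 and Ankrd1 passed when the agents were fitted within each set (adjusted p = 7.30e-06 and 3.64e-06), at the same estimates. The 2 probes of Ccn1 ran together over the transformed arrays (r = 0.997), as did those of Tgfbi (r = 0.963). Over the primary arrays the Ccn1 probes correlated with r = 0.867 but differed between 16 h and 8 h, as given below.

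**Figure D1:**
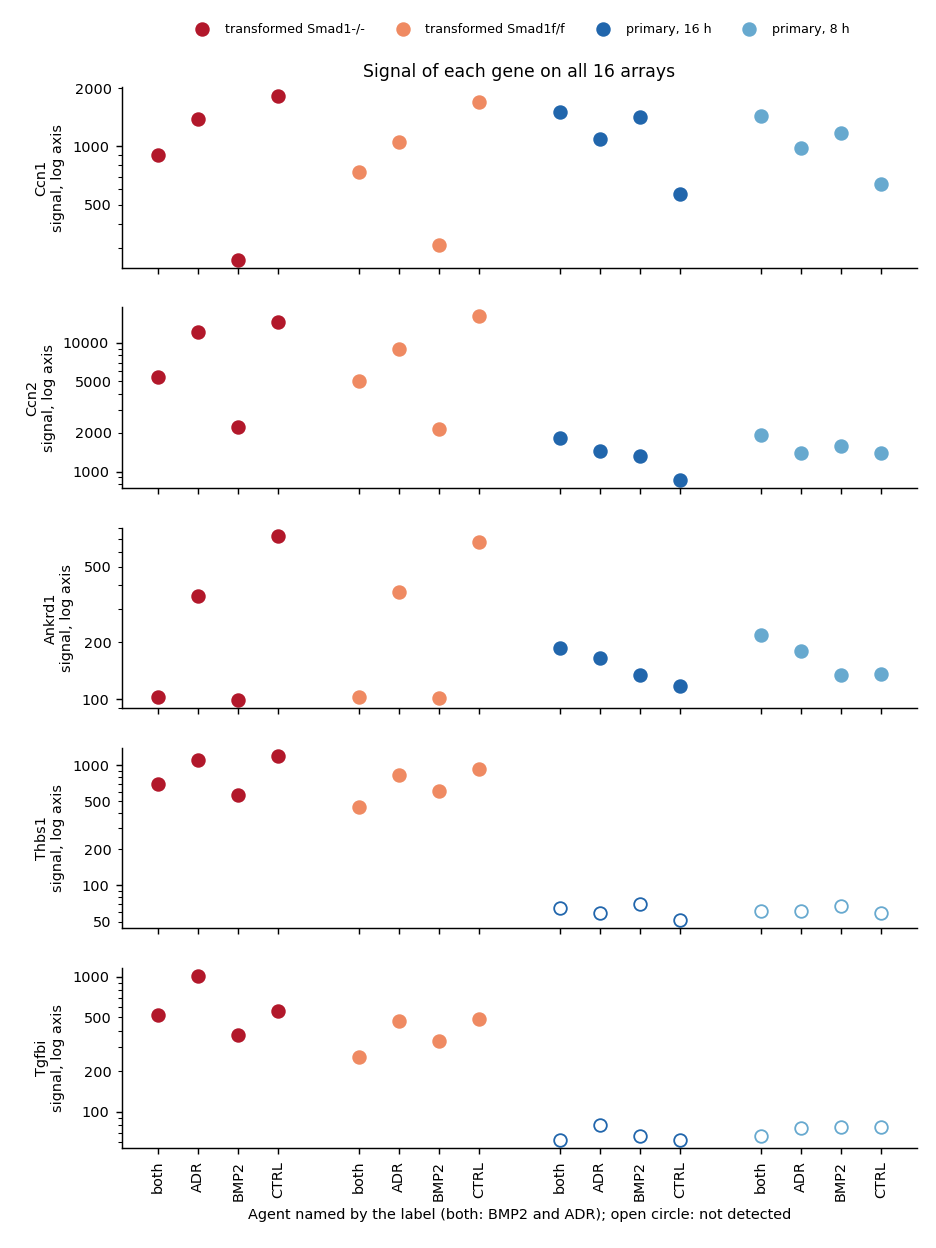
Deposited signal (log axis) of the brightest probe of each gene on the 16 arrays, ordered by the agent the label names; filled circles are detected, open circles not detected, and the transformed Smad1-/- BMP2 signal is recovered from the log2 table. Ccn1 and Ccn2 are lowest among the transformed arrays in both BMP2-labelled arrays, Ankrd1 is near 100 in the 4 transformed arrays whose label names BMP2, and Thbs1 and Tgfbi are undetected on all 8 primary arrays.

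Transformed cells labelled BMP2 at 12 h had far less Ccn1, Ccn2 and Ankrd1 RNA than untreated cells at 0 h, in both genotypes. Ccn2 had signals of 2211.9 (Smad1-/-) and 2137.4 (Smad1f/f) on arrays labelled BMP2, against 14460.0 and 16190.2 on untreated arrays. Ccn1 had 261.0 and 312.1 on arrays labelled BMP2, against 1831.2 and 1705.3 on untreated arrays. Ankrd1 had 99.4 and 101.1 on arrays labelled BMP2, against 731.2 and 679.4 on untreated arrays. For all 3 genes the BMP2-labelled and untreated arrays lay far apart, with the genotypes side by side within each. The share of all genes that separate likewise was not counted. Ccn2 fell by 2.51 ± 0.09 on the log2 scale (5.71-fold, adjusted p = 1.44e-08), Ankrd1 by 2.51 ± 0.11 (5.71-fold, adjusted p = 3.35e-08) and Ccn1 by 2.33 ± 0.12 (5.02-fold, adjusted p = 9.20e-08), which ranked them 21, 22 and 32 of 10275 genes by size of change. Ankrd1 on the BMP2-labelled arrays was only just above background, and with background-corrected values (neqc) its change was -3.49. Thbs1 and Tgfbi moved less. Thbs1 had 569.8 and 611.6 on arrays labelled BMP2, against 1196.5 and 936.1 on untreated arrays, and fell by 0.54 ± 0.13 (adjusted p = 0.00525), a call lost without the Smad1-/- BMP2 array (-0.29, adjusted p = 0.113) or the Smad1-/- untreated array (-0.46, adjusted p = 0.0620). Tgfbi had 371.4 and 334.8 on arrays labelled BMP2, against 557.6 and 483.2 on untreated arrays, a change of -0.26 ± 0.18 (adjusted p = 0.245). Thus 4 of 5 members fell, in a comparison where 24.5% of genes fell, 26.9% rose and 51.5% passed in either direction. That background depends on scaling, since the share of calls that were higher was 52.3% on the deposited values and 28.6% when arrays were set to a common median.

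When both agents were named by the label, the level of Ccn1 and Ccn2 lay between that with BMP2 alone and that with ADR alone. Ccn1 had 900.2 (Smad1-/-) and 738.7 (Smad1f/f) with both labels, against 261.0 and 312.1 with BMP2 alone and 1389.9 and 1059.4 with ADR alone. Ccn2 had 5382.4 and 5012.2 with both, against 2211.9 and 2137.4 with BMP2 alone and 12051.0 and 8936.5 with ADR alone. In neither gene did any of the 3 conditions overlap another, at 2 arrays each. How many other genes separate in this way was not counted. Against BMP2 alone Ccn1 was 1.29 ± 0.12 higher (adjusted p = 1.48e-05) and Ccn2 1.03 ± 0.09 higher (adjusted p = 1.14e-05), in both genotypes. Ankrd1 showed no such difference, with 102.3 and 103.0 with both against 99.4 and 101.1 with BMP2 alone, all near background, and a change of -0.19 ± 0.11 (95% interval -0.42 to 0.05, adjusted p = 0.174). Thbs1 had 704.1 (Smad1-/-) and 446.9 (Smad1f/f) with both, against 569.8 and 611.6 with BMP2 alone, a change of -0.30 ± 0.13 (adjusted p = 0.0939) that passed without the Smad1-/- BMP2 array (-0.55, adjusted p = 0.0121) or the Smad1-/- array with both labels (-0.48, adjusted p = 0.0484). Tgfbi had 518.1 and 255.9 with both, against 371.4 and 334.8 with BMP2 alone, a change of -0.18 ± 0.18 (adjusted p = 0.441). In both of these genes the groups overlapped and the genotypes moved in opposite directions. So 2 of 5 members rose, where 17.8% of genes rose, 23.2% fell and 40.9% passed in either direction. The share of calls that were higher was 43.4% on the deposited values and 76.3% with a common median.

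Against ADR alone all 5 members were lower with both labels, in both genotypes. Ankrd1 had 102.3 and 103.0 with both labels, against 349.5 and 370.5 with ADR alone, and fell by 1.86 ± 0.11 (adjusted p = 8.17e-08; -2.75 with neqc). Ccn2 fell by 1.05 ± 0.09 (adjusted p = 1.89e-06) and Ccn1 by 0.62 ± 0.12 (adjusted p = 7.47e-04). Tgfbi had 518.1 and 255.9 with both, against 1014.6 and 472.1 with ADR alone, and fell by 0.98 ± 0.18 (adjusted p = 6.01e-04). Thbs1 had 704.1 and 446.9 with both, against 1112.6 and 823.4 with ADR alone, and fell by 0.82 ± 0.13 (adjusted p = 2.50e-04). For Tgfbi the signals of the 2 groups overlapped across genotypes, since the Smad1-/- array with both labels lay above the Smad1f/f array with ADR. On the scaled log2 values used in the tests these 2 arrays had 1.698 and 1.721, so there the groups did not overlap. In this comparison 30.7% of genes fell, 26.7% rose and 57.5% passed in either direction. It shares the arrays with both labels with the comparison against BMP2 alone.

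The ADR label alone went with smaller decreases. Ankrd1 had 349.5 and 370.5 on arrays labelled ADR at 12 h, against 731.2 and 679.4 on untreated arrays, and fell by 0.84 ± 0.11 (adjusted p = 0.00267), ranking 20 of 10275. Ccn2 fell by 0.43 ± 0.09 (adjusted p = 0.0218), with 12051.0 and 8936.5 on arrays labelled ADR against 14460.0 and 16190.2 on untreated arrays. That call was lost with neqc values (-0.32, adjusted p = 0.0606), without the Smad1f/f untreated array (-0.32, adjusted p = 0.248), without the Smad1-/- untreated array (-0.55, adjusted p = 0.0578) and without the Smad1f/f ADR array (-0.29, adjusted p = 0.150). Ccn1 differed by -0.41 ± 0.12, short of the threshold (adjusted p = 0.0611), and passed without the BMP2 array of either genotype (adjusted p = 0.0360 without Smad1-/- and 0.0371 without Smad1f/f). Thbs1 differed by -0.02 ± 0.13 (adjusted p = 0.961) and Tgfbi by 0.54 ± 0.18 (adjusted p = 0.101), the Tgfbi value being made up of 0.89 in Smad1-/- and 0.20 in Smad1f/f. Thus 2 of 5 members fell, where 4.6% of genes fell, 1.57% rose and 6.17% passed in either direction. The share of calls that were higher was 25.4% on the deposited values and 50.4% with neqc. These arrays share their untreated controls with the BMP2 comparison.

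The combined effect was tested as an interaction, the difference between both labels together and the sum of the single ones. Its untreated arrays are at 0 h and its other arrays at 12 h. A change over 12 h of culture therefore enters the interaction and cannot be told apart from a combined effect of the agents. The interaction was 1.71 ± 0.17 for Ccn1 (adjusted p = 8.95e-05), 1.47 ± 0.13 for Ccn2 (adjusted p = 4.45e-05) and 0.65 ± 0.15 for Ankrd1 (adjusted p = 0.0108, and 0.0577 without the Smad1-/- untreated array). In these 3 genes the level with both labels was thus above the sum of the single changes from 0 h. For Ankrd1 both BMP2-containing conditions lay near background. Thbs1 (-0.28 ± 0.19, adjusted p = 0.296) and Tgfbi (-0.72 ± 0.25, adjusted p = 0.0610) did not pass. Tgfbi did pass with neqc (-0.94, adjusted p = 0.0365), with no detection filter (adjusted p = 0.0360), with the mean of its probes (-0.67, adjusted p = 0.0406) and in 1 fit of all 16 arrays (adjusted p = 0.0264). It also passed without the Smad1-/- BMP2 array (-0.99, adjusted p = 0.0243), without the Smad1f/f ADR array (-0.97, adjusted p = 0.0256) and without the Smad1-/- array with both labels (-0.95, adjusted p = 0.0455). Of all genes 22.4% passed, 12.6% above 0 and 9.83% below. The share of calls above 0 was 56.2% on the deposited values and 89.2% with a common median.

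**Figure D2:**
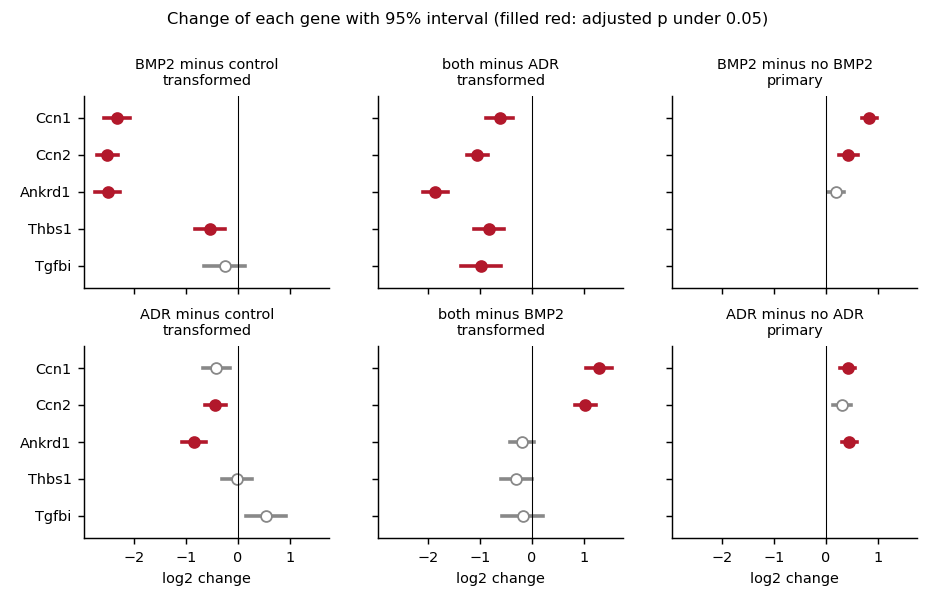
Log2 change (points) with 95% interval (bars) of each gene for 6 comparisons; filled red marks an adjusted p under 0.05, and agents are those the labels name. In the transformed set Ccn1, Ccn2 and Ankrd1 change by -2.33, -2.51 and -2.51 with the BMP2 label, whereas in the primary set Ccn1 and Ccn2 change by 0.83 and 0.43.

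In primary cells Ccn1 and Ccn2 were higher, not lower, with the BMP2 label. Ccn1 at 16 h had 1502.6 with both labels, 1419.3 with BMP2, 1094.9 with ADR and 568.1 without agent, and at 8 h 1438.8, 1168.9, 983.0 and 644.1 in the same order. At both times the untreated array was lowest and the array with both labels highest. Averaged over both times and over arrays with and without ADR, Ccn1 was 0.83 ± 0.07 higher with the BMP2 label (adjusted p = 3.76e-07, higher in 4 of 4 pairs). Ccn2 at 16 h had 1834.6 with both labels, 1324.4 with BMP2, 1430.1 with ADR and 864.3 without agent, and at 8 h 1916.5, 1563.6, 1398.2 and 1402.9. It was 0.43 ± 0.08 higher with the BMP2 label (adjusted p = 0.00127, 4 of 4 pairs). Ankrd1, in the same order of labels, had 185.6, 133.6, 164.3 and 117.9 at 16 h and 217.5, 134.9, 180.2 and 135.9 at 8 h, and it differed by 0.19 ± 0.07 with the BMP2 label (adjusted p = 0.0614, 4 of 4 pairs). Of the 3 members that were tested in this set, 2 rose with the BMP2 label, where 11.6% of 9433 genes rose, 13.4% fell and 25% passed in either direction.

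The ADR label in primary cells went with higher Ccn1 and Ankrd1. Ankrd1 rose by 0.45 ± 0.07 (adjusted p = 0.00447) and Ccn1 by 0.43 ± 0.07 (adjusted p = 0.00527), each in 4 of 4 pairs, and both calls were lost without the BMP2 array at 8 h (0.42 and 0.37, adjusted p = 0.0655 each). Ccn2 differed by 0.31 ± 0.08 (adjusted p = 0.131, higher in 3 of 4 pairs), and passed without the 8 h array that had no agent (0.44, adjusted p = 0.00625). The increase in Ccn1 was 0.59 at 8 h and 0.77 at 16 h without BMP2, and 0.27 and 0.07 on top of the BMP2 label. In all 0.806% of genes passed here, 0.488% higher and 0.318% lower. The share of calls that were higher was 60.5% on the deposited values and 86.2% with a common median. Between 16 h and 8 h Ccn2 was lower by 0.38 (-0.38 ± 0.08, adjusted p = 0.00255) and Ankrd1 by 0.28 (-0.28 ± 0.07, adjusted p = 0.00602), each in 4 of 4 pairs, and Ccn1 differed by -0.06 ± 0.07 (adjusted p = 0.526). The other Ccn1 probe had log2 values at 16 h and 8 h of 1.12 and 0.43 with both labels and 0.84 and 0.03 with BMP2. With ADR it had 0.36 and 0.03, and without agent -0.62 and -0.60. The probes of Ccn1 thus differed over time, and their mean gave 0.20 (adjusted p = 0.0670). The median of all genes in this comparison was -0.11, 45.8% passed, 34.1% fell and 11.7% rose. With a common median per array that median was 0.09, the changes of Ccn2 and Ankrd1 were -0.18 and -0.08, and neither passed.

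The difference between the sets was tested itself, in 1 fit of all 16 arrays. For BMP2 minus untreated, Ccn1 changed by -2.33 ± 0.11 in transformed and by 1.09 ± 0.11 in primary arrays, a difference of -3.42 ± 0.16 (adjusted p = 1.62e-10) that ranked 3 of 10982 genes. Ccn2 changed by -2.51 ± 0.12 in transformed and by 0.39 ± 0.12 in primary arrays, a difference of -2.90 ± 0.16 (adjusted p = 1.09e-09). Ankrd1 changed by -2.51 ± 0.10 in transformed and differed by 0.08 ± 0.10 in primary arrays, a difference of -2.60 ± 0.14 (adjusted p = 9.16e-10). The Thbs1 difference of -0.85 ± 0.17 passed (adjusted p = 8.00e-04) and the Tgfbi difference of -0.29 ± 0.22 did not (adjusted p = 0.311), but the primary side of both is undetected signal. Of all genes 39.4% passed, 21.1% above 0 and 18.4% below. For both labels minus BMP2, the difference was 1.12 ± 0.16 for Ccn1 (adjusted p = 7.73e-05) and 0.67 ± 0.16 for Ccn2 (adjusted p = 0.00668, and 0.0522 without the primary 8 h array with both labels). For Ankrd1 it was -0.75 ± 0.14 (adjusted p = 0.00122), made up of -0.19 in transformed and 0.56 in primary arrays. The transformed side of that Ankrd1 value compares signals near background (99.4 to 103.0) under both conditions. Here 22.9% of genes passed, 11% above 0 and 11.9% below. Time (12 h with a 0 h control against matched 8 h and 16 h), transformation and the cell makeup described above cannot be told apart in these differences.

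No member passed between the genotypes, where 0.136% of genes did, 0.127% higher in Smad1-/- and 0.00973% lower. Tgfbi was higher in Smad1-/- than in Smad1f/f in each of the 4 conditions, with 518.1 against 255.9 with both labels, 1014.6 against 472.1 with ADR, 371.4 against 334.8 with BMP2 and 557.6 against 483.2 untreated. The difference was 0.59 ± 0.13 (adjusted p = 0.102), and the pairs gave 0.94 with both labels, 0.97 with ADR, 0.18 with BMP2 and 0.27 untreated. It passed when either BMP2 array was left out (0.73, adjusted p = 0.0281 without Smad1f/f and 0.0267 without Smad1-/-). Thbs1 was 0.31 ± 0.09 higher in 3 of 4 pairs (adjusted p = 0.263), and passed without the Smad1-/- BMP2 array (0.43, adjusted p = 0.0492). Ccn1 (0.10 ± 0.08), Ccn2 (0.08 ± 0.06) and Ankrd1 (-0.03 ± 0.08) had 95% intervals of -0.08 to 0.28, -0.06 to 0.22 and -0.20 to 0.13.

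**Figure D3:**
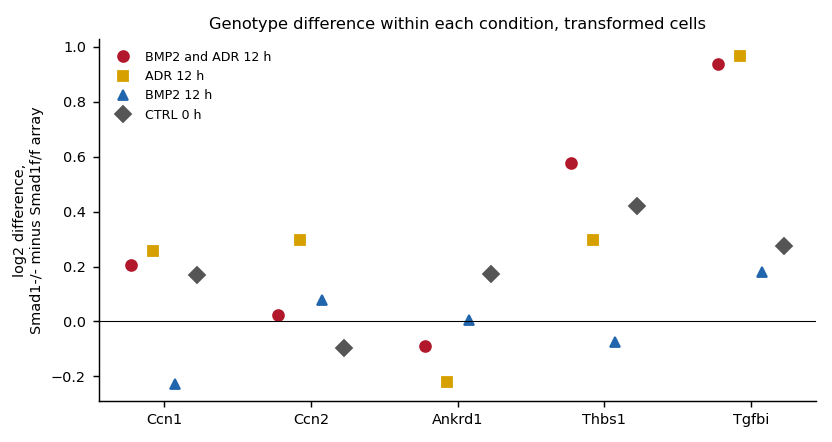
Log2 difference, Smad1-/- minus Smad1f/f array, of each gene in each transformed condition (1 array per genotype and condition, so the points have no error of their own). Tgfbi lies at 0.94 and 0.97 in the conditions whose label names ADR and at 0.18 and 0.27 in the other conditions, and the points of Ccn2 and Ankrd1 scatter around 0.

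Over the transformed arrays every pair of members correlated above 0. Ccn1 and Ccn2 correlated with r = 0.979 over the 8 arrays, Ccn2 and Ankrd1 with 0.890, Ccn1 and Ankrd1 with 0.810, and Thbs1 and Tgfbi with 0.821. Thbs1 correlated with Ankrd1 at 0.819, with Ccn2 at 0.678 and with Ccn1 at 0.617. Tgfbi correlated with Ccn1, Ccn2 and Ankrd1 at 0.443, 0.487 and 0.466. Over the 8 primary arrays the values were 0.761 for Ccn1 and Ccn2, 0.806 for Ccn2 and Ankrd1, and 0.606 for Ccn1 and Ankrd1. All of these are descriptions over arrays that share conditions and scaling. With each set centred on its own mean, the genes most like Ccn2 over 16 arrays among 7024 candidates were Arf6, Acbd3 and Lrrc41 (r = 0.976, 0.968 and 0.967). Those most like Ccn1 were Klf3, Ccnl1 and Uhrf1bp1l (0.949, 0.944 and 0.940), and those most like Ankrd1 were Pds5b, Timm9 and Eva1b (0.970, 0.969 and 0.966). Over the 8 transformed arrays, among 8131 candidates, Thbs1 was most like Kptn, Ddx6 and Bend3 (0.990, 0.977 and 0.975) and Tgfbi most like Ank, Gosr1 and Plxna2 (0.946, 0.942 and 0.927).

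Lists of related genes are described next, and for the BMP2 label in transformed cells their counts stand beside 24.5% of all genes lower and 26.9% higher. Of 9 tested paralogs of the members 2 fell, a share near that background. Both were CCN genes, while another tested CCN gene, Ccn3, differed by 0.25 ± 0.10 (adjusted p = 0.0660). Ccn5 changed by -2.40 ± 0.13 (adjusted p = 1.67e-07) and Ccn4 by -1.65 ± 0.10 (adjusted p = 2.91e-07). Comp (0.37), a cartilage thrombospondin, and Lpxn (0.31), a paxillin relative, rose, but 0 paralogs rose with a common median or with neqc. In primary cells Ccn4 fell by 0.33 ± 0.08 with the BMP2 label (adjusted p = 0.00571), the 1 paralog of 4 tested that passed there, while Ccn5 was not detected. Of all genes 25% passed in that comparison and 13.4% fell.

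Of 19 tested TGF-beta target genes, 10 fell and 2 rose with the BMP2 label in transformed cells, with a median change of -0.45 against 0.06 over all genes, of which 24.5% fell and 26.9% rose. Snai2, a repressor of epithelial genes, changed by -1.49 ± 0.17, Cdkn2b, a CDK inhibitor induced by TGF-beta, by -1.31 ± 0.09, Bhlhe40 by -1.06 ± 0.11 and Tsc22d1 by -0.84 ± 0.12 (adjusted p between 6.85e-07 and 1.58e-04). The counts were 10 lower and 2 higher with neqc, 12 and 1 with a common median, and 6 and 1 without the Smad1-/- BMP2 array. With both labels against BMP2 alone, 7 of the 19 rose and 2 fell (median 0.06, against -0.08 over all genes), where 17.8% of all genes rose and 23.2% fell. Among them were Cdkn2b (1.39), Bhlhe40 (1.21), Junb (0.81) and Tgif1 (0.74). With the BMP2 label in primary cells 5 of 16 rose and 5 fell (median 0.02, against -0.02), where 11.6% of all genes rose and 13.4% fell. They were led by Pdgfb (-1.26), Ltbp1 (1.08), Snai2 (0.48) and Ltbp2 (-0.44). With the ADR label in primary cells Ltbp2 (0.88) and Pdgfb (0.55) rose and no other of the 16 passed, where 0.488% of all genes rose and 0.318% fell. Of the genes of the ligands, receptors and SMADs, 2 of 14 rose and 2 fell with the BMP2 label in transformed cells, and the counts were 1 higher and 5 lower with a common median and 4 and 2 with neqc. Smad4, the partner shared by the BMP and TGF-beta branches, changed by -0.78 ± 0.08, Smad2 by -0.35 ± 0.09, Inhbb by 0.59 ± 0.14 and Tgfb2 by 0.48 ± 0.14.

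YAP and TEAD target genes also moved both ways. With the BMP2 label in transformed cells 6 of 17 fell and 5 rose (median -0.09, against 0.06 over all genes, of which 24.5% fell and 26.9% rose), but the counts were 9 and 0 with a common median, 7 and 3 with neqc, and 7 and 2 without the Smad1-/- BMP2 array. Those that fell most were Asap1, an Arf GTPase activator (-1.80 ± 0.09), F3, the coagulation tissue factor (-1.66 ± 0.09), Rbms3 (-1.23 ± 0.09) and Amotl2, an angiomotin (-0.70 ± 0.09). In primary cells F3 was 0.64 ± 0.07 higher with the BMP2 label and Amotl2 0.40 ± 0.10 higher (adjusted p = 9.27e-06 and 0.00743), among 4 of 14 that rose and 3 that fell, beside 11.6% and 13.4% of all genes. With both labels against BMP2 alone in transformed cells F3 rose by 0.86 and Amotl2 by 0.49, while Birc5 (-1.16) and Rbms3 (-0.67) fell, among 4 that rose and 3 that fell, beside 17.8% and 23.2% of all genes. Of 11 tested Hippo components, Frmd6 (-1.14 ± 0.12), Rassf1 (-1.05 ± 0.09) and Tead4 (-0.28 ± 0.11) fell and Stk4 (0.52 ± 0.12), a Hippo kinase, rose in transformed cells, and 7 fell with a common median. In primary cells Wwtr1 (0.52 ± 0.10), Rassf1 (0.43 ± 0.07) and Tead4 (0.38 ± 0.09) rose with the BMP2 label and none of the 11 tested fell, beside 11.6% of all genes higher and 13.4% lower. Yap1 differed by -0.29 ± 0.12 in transformed cells (adjusted p = 0.0640) and by -0.01 ± 0.09 in primary cells (adjusted p = 0.969); this gene was added after its values were seen.

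Targets of SRF, the serum response factor that answers to actin, were counted because Ccn1, Ccn2 and Ankrd1 are also SRF-linked. With the BMP2 label in transformed cells 4 of 16 fell and 3 rose (median -0.08), or 8 fell and 1 rose with a common median (median -0.26), with Fhl2 at -1.53 ± 0.11, Zyx at -0.75 ± 0.07, Srf itself at -0.46 ± 0.10 and Fos at 1.51 ± 0.12. With both labels against BMP2 alone 11 of 16 fell and 3 rose, where 23.2% of all genes fell and 17.8% rose. The list median was -0.49, against -0.08 over all genes, while Ccn1 and Ccn2 rose. Flna was at -1.02, Cnn2 at -0.83, Fhl1 at -0.71 and Egr1 at 1.17. The counts of this list were 8 and 3 with a common median and 11 and 3 with neqc. The part of SRF in any of these changes was not tested. With ADR alone 8 of 16 fell and 2 rose, beside 4.6% and 1.57% of all genes, and 6 fell and 0 rose with a common median. The members as a set, the lists and their counts carry no test of their own.

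**Figure D4:**
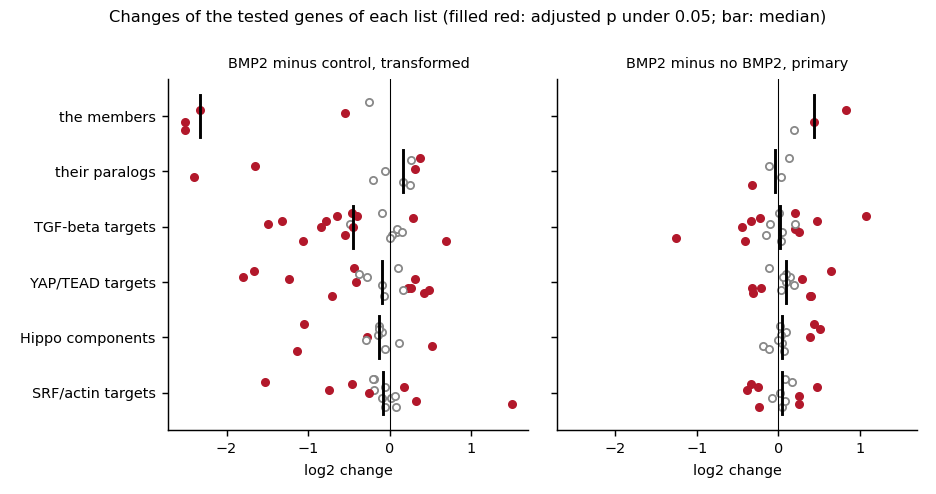
Log2 change of every tested gene of 6 lists with the BMP2 label, in the transformed set (left) and the primary set (right); filled red marks an adjusted p under 0.05 and the black bar is the median of the list. In the transformed set the 5 tested members all lie below 0, with a median of -2.33. The TGF-beta targets have a median of -0.45 there, and every list other than the members has genes on both sides of 0.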

How the data were processed

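RNA of 16 MEF samples was hybridised to Illumina arrays, 1 sample per condition. The submitters' processing notes name GenomeStudio 2011.1, without its role. The authors deposited a table of signal intensity per probe that was not normalized, per the file headers (its lowest values lie near the array background rather than at 0), and beside each intensity a detection score, which the deposited values show to be 1 minus the detection p-value. They also deposited a value table on a log2 scale. Set against the intensities, the deposited log2 values equal log2 intensity after subtracting, for each array, the 75th percentile and, for each probe, its median over the 16 arrays (departures up to 0.00077), so levels of different probes cannot be compared in them. In the deposited intensity table the BMP2 columns of both transformed genotypes are identical in 100% of probes; the Smad1-/- one correlates with its own detection score at Spearman 0.950, against 0.989 for Smad1f/f, and the Smad1-/- signal recovered from the log2 table lies within 0.01 of a 0.1 step in 99.9% of probes and reaches 0.992.

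The platform annotation gives 1 symbol to 20984 of 24613 probes, several to 1 and none to 3628. Each gene was read by its brightest probe, by mean log2 intensity, among those detected (p under 0.05) on at least 2 arrays. limma 3.58.1 in R 4.3.3 was fitted over all kept genes with a variance trend and Benjamini-Hochberg adjustment (threshold 0.05, two-sided). The transformed set had terms for genotype and agent (both labels, ADR, BMP2 or none), from which the interaction was taken as both minus ADR minus BMP2 plus none, the primary set for time and agent, the comparisons between sets used all 16 arrays. Errors are standard errors of the fit. The fit across genes was tested on simulated data. Figures used Python 3.11.15 and matplotlib 3.10.9.

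Members and gene lists were chosen with earlier results of these data known. Named were all members, the 3 genes most correlated with each, 5 checks of the labels, and per list up to 4 genes with the largest change among those past the threshold. Alternatives were neqc (with an offset of 16), median scaling, other detection filters, the mean of probes, robust variance, 1 fit of all arrays, each array left out in turn, and calls with an absolute log2 change of 1 or more. The list counts under other scalings and without the Smad1-/- BMP2 array were added after seeing the data.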

Additional observations from a re-analysis of the deposited data

Results flagged for a closer look

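For 7 values the response to a label differed between the transformed and the primary set by a test of the difference itself (limma, 16 arrays). For BMP2 minus untreated, transformed minus primary, the differences were -3.42 for Ccn1, -2.90 for Ccn2, -2.60 for Ankrd1 and -0.85 for Thbs1. For both labels minus BMP2, they were 1.12 for Ccn1, 0.67 for Ccn2 and -0.75 for Ankrd1. The Thbs1 value rests on undetected signal in the primary set, and the Ccn2 value of 0.67 was not past the threshold when the primary 8 h array with both labels was left out (0.55, adjusted p = 0.0522). The Ankrd1 value of -0.75 rests on transformed arrays that all lie near background.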

How the results depend on the processing

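Across members and comparisons, 518 values with 1 array left out and 376 under other settings kept their direction and their side of the threshold, 9 and 19 lost a call, 11 and 14 gained one, and 14 and 7 changed sign. The number of members past the threshold changed by more than 1.5 times as follows. Between genotypes (0 of 5) it was 1 without the detection filter and in 1 fit of all 16 arrays, and 0 to 2 with an array left out. For ADR in transformed cells (2) it was 1 with neqc, 4 in 1 fit of all arrays, 0 with a log2 change of at least 1, and 1 to 3 with an array left out. For both labels minus ADR (5) it was 2, for ADR in primary cells (2) 0, for BMP2 in primary cells (2) 0 and for both minus BMP2 between sets (3) 1, each when a log2 change of at least 1 was required; with an array left out ADR in primary cells gave 0 to 3. For 16 h minus 8 h (2) it was 0 with median scaling and 0 with a log2 change of at least 1. For transformed Smad1f/f minus primary (3) it was 1 among genes detected on every array and 5 in 1 fit with agents within sets. The counts of 3 and 5 include Thbs1 and Tgfbi, which were detected on no primary array. These genes passed the detection filter through the transformed arrays only, so their calls are against background and were set by that filter. Fewer genes tested or a stricter rule gives the lower counts by construction; for the others the cause was not tested. Smaller changes were 2 to 4 for the interaction (3) with an array left out and also under other settings, 3 for BMP2 in transformed cells (4) with an array left out or a log2 change of at least 1, 3 for both minus BMP2 (2) and 2 for both minus BMP2 between sets (3) with an array left out, and 3 for BMP2 between sets (4), BMP2 in primary cells (2), 16 h minus 8 h (2), and ADR in primary (2) and transformed cells (2) under at least 1 other setting.

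Sign changes were all among values that did not pass. Ankrd1 between genotypes was 0.0092 with median scaling and -0.10 to 0.030 with an array left out. Tgfbi with BMP2 in transformed cells was -0.53 to 0.018 with an array left out. Thbs1 with ADR in transformed cells was 0.054 with neqc and -0.094 to 0.060 with an array left out. Tgfbi for both minus BMP2 was -0.45 to 0.098 with an array left out. Ccn1 at 16 h minus 8 h was 0.0011 with neqc, 0.14 with median scaling, 0.20 with the mean of its probes and -0.12 to 0.0014 with an array left out. Tgfbi for both minus BMP2 between sets was 0.0996 with median scaling, 0.072 with the mean of probes and -0.28 to 0.27 with an array left out, and Thbs1 there -0.41 to 0.098.

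Over all genes, calls between genotypes were 14, against 68 without the detection filter, 80 in 1 fit of all arrays, 2 with robust variance and 0 with the mean of probes. For ADR in transformed cells they were 634, against 395 with neqc and 386 with median scaling; the share that was higher was 25.4%, or 50.4% with neqc. For 16 h minus 8 h calls were 4325, against 12148 without the detection filter, and 25.5% were higher, or 86.3% with median scaling. For ADR in primary cells there were 76 calls, against 116 with median scaling. Median scaling moved the median of all genes to -0.13, against 0.06, for BMP2 in transformed cells. It moved the share of higher calls to 76.3%, against 43.4%, for both minus BMP2, to 33.3%, against 53.5%, for BMP2 between sets and to 70.5%, against 47.9%, for both minus BMP2 between sets. The 1 fit of all arrays is already the fit of the comparisons of responses between sets and gives them no second value. No paired analysis was possible because each condition has 1 array and the groups share only the replicate number 1; genotype and time, which do match arrays across labels, are terms of the fits already. Ankrd1 lies near the array background in 4 transformed arrays, so its fold there is limited by that background, as are Thbs1 and Tgfbi in primary cells.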
